A study of Mus musculus with 4 samples.

Results

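Toll-like receptors recognise conserved molecules of microbes, and this account follows 10 genes of that system in immune cells of the inflamed mouse esophagus: the receptors Tlr2, Tlr3, Tlr4, Tlr7, Tlr9 and Tlr13, the cofactors Cd14, Ly96 and Cd180, and the adaptor Myd88. The 10 genes were taken by name from a table of 32285 genes, and all 10 had counts. The series measured RNA of single CD45+ cells, that is of leukocytes, from 5 wild-type mice and 5 mice labelled as knock-outs of Il20rb, which encodes a receptor chain for cytokines of the interleukin-20 family. All 10 mice were in the same model of eosinophilic esophagitis: the ears received 1 nmol MC903 (calcipotriol) with 5 mg/mL ovalbumin daily for 14 days, from day 14 the drinking water held 1.5 g/l ovalbumin, 50 mg ovalbumin was given by gavage on days 15 and 17, and tissue was taken on day 18. No untreated mice are among the samples analysed here, so every value belongs to the model, and the sources used here give no strain, age or knock-out allele. Each mouse carried its own hashtag antibody, the 10 suspensions were pooled and sorted together for live CD45+ cells, and the pool was loaded on 2 wells, so the mouse is the replicate throughout (animals 1 to 5 of each genotype, in hashtag order).

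The members work in groups. Tlr2 and Tlr4 sit at the cell surface, where Tlr2 recognises bacterial lipoproteins and Tlr4 recognises lipopolysaccharide, which CD14 hands to the complex of Tlr4 with the protein MD-2, the product of Ly96. Cd180 encodes a surface relative of Tlr4 without a signalling domain, which pairs with MD-1, the product of Ly86, and is known best from B cells. Tlr3, Tlr7, Tlr9 and Tlr13 sit in endosomes and read nucleic acids: double-stranded RNA, single-stranded RNA, unmethylated CpG DNA and bacterial ribosomal RNA. Myd88 encodes the adaptor used by the members of the family other than Tlr3, which signals through TRIF.

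The table held 6054 cells with 1000 to 52182 UMIs each (UMIs count captured RNA molecules), and 1805883 to 5666994 UMIs per animal. Cells were clustered without the 10 genes and named from fixed marker lists, so that a class name such as "monocyte-like" rests on other genes; the names are rebuilt here and are not the authors'. The levels below are raw CPM, UMIs of the gene per 1000000 UMIs of one animal's cells of a class, in animals with 10 or more such cells. A level is thus a share of the RNA counted and not an amount per cell. The median depth was 1820 UMIs in neutrophil-like and 5818 in monocyte-like cells. There were 1399 monocyte-like cells (8 animals usable), 926 macrophage-like (10 animals), 835 cDC2-like (10), 594 neutrophil-like (7), 293 ILC2-like (9), 248 T-like (9), 220 cycling (7), 209 cDC1-like (10) and 89 migratory DC-like cells (5), where cDC1 and cDC2 are the types of conventional dendritic cell and ILC2 are group 2 innate lymphoid cells. Another 1010 cells stayed unnamed. Il20rb itself gave 16 UMIs over all cells (10 from wild-type mice, 6 from knock-out mice), too few to check the genotype labels.

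Sequences upstream of 4 members are shown: Tlr3 and Tlr13, endosomal receptors that led in different classes, Myd88, the shared adaptor, and Cd180, the member with a called difference between genotypes. They are the 250 bases before the annotated start in RefSeq (build GRCm38.p6), written 5′ to 3′ on the gene's own strand. The window of Tlr3 lies within the gene span given below (8:45395665-45411075), so it precedes that start but not the whole annotated gene. The windows of Tlr2 and of a second Cd180 start, both searched but not shown, overlap their gene spans in part. Capitals mark matches, on either strand, to any of 3 searched motifs: GAGGAA, a core of sites for the myeloid factor PU.1; TTGCNNAA, a core of C/EBP sites; and GAAANNGAAA, the interferon-stimulated response element. A GAGGAA match occurred in 23.3% of 32817 upstream windows of this length, a TTGCNNAA match in 9.57% and a GAAANNGAAA match in 2.97%. A match is a description of letters and not of a binding site.
Tlr3, chr8:45410381-45410630 (minus strand): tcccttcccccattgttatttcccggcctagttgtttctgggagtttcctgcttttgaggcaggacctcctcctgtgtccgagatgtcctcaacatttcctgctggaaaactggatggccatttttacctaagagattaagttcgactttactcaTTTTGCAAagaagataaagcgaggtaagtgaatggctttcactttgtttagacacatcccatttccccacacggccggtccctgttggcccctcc
Tlr13, chrX:106143025-106143274 (plus strand): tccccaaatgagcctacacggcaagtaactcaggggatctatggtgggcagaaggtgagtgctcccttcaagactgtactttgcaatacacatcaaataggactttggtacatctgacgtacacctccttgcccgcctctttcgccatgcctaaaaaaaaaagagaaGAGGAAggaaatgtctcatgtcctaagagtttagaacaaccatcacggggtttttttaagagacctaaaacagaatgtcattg
Myd88, chr9:119340019-119340268 (minus strand): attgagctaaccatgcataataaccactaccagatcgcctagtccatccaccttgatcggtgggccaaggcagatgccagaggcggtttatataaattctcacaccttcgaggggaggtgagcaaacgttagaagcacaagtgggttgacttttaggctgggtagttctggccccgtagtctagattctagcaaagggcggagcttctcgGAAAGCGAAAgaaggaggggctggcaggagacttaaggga
Cd180, chr13:102693297-102693546 (plus strand): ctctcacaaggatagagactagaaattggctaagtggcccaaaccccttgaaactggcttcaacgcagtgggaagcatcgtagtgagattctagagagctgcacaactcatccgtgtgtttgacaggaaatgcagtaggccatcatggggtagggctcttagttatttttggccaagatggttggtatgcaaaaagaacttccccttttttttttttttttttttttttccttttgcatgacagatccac

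The window of Tlr3 holds 1 match to TTGCNNAA, which begins at position -95 counted from the start (the base just before the start is -1), and that of Tlr13 holds 1 match to GAGGAA at -83. The window of Myd88 holds 1 match to GAAANNGAAA at -40. The window of Cd180 holds none of the 3, nor does that of a second annotated Cd180 start (chr13:102693308-102693557), and no match says only that these letters are not in the window. Of the others in the reference table, Tlr9 had a GAGGAA match at -112 and Tlr2 had none; Tlr4, Tlr7, Ly96 and Cd14 have no row there.

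The surface receptors of bacterial products stood highest in neutrophil-like cells. Tlr2 (3:83836272-83841824, protein coding) stood at 545 ± 327 CPM there (mean ± SD, n = 7 animals), at 163 ± 75.0 in monocyte-like cells (n = 8) and at 68.0 ± 14.4 in macrophage-like cells (n = 10). The neutrophil-like values were 706, 627, 0, 331 and 423 CPM in wild-type animals 1 to 5, and 712 and 1017 CPM in knock-out animals 1 and 5. Of these 7 animals, 6 were above their own monocyte-like value, and wild-type animal 3, with 13 neutrophil-like cells, gave no Tlr2 UMI; the paired difference was 1.19 ± 2.38 log2 units (SD; exact sign-flip p = 0.281). From monocyte-like to macrophage-like cells Tlr2 was lower in 7 of 8 animals (difference 0.88 log2, exact p = 0.0234, adjusted p = 0.117). Levels then ran through cycling cells (44.1 CPM), cDC2-like (34.5), cDC1-like (17.2), ILC2-like (9.0), migratory DC-like (5.36) and T-like cells (4.12), and the cycling and cDC2-like values did not differ beyond their spread.

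**Figure D1:**
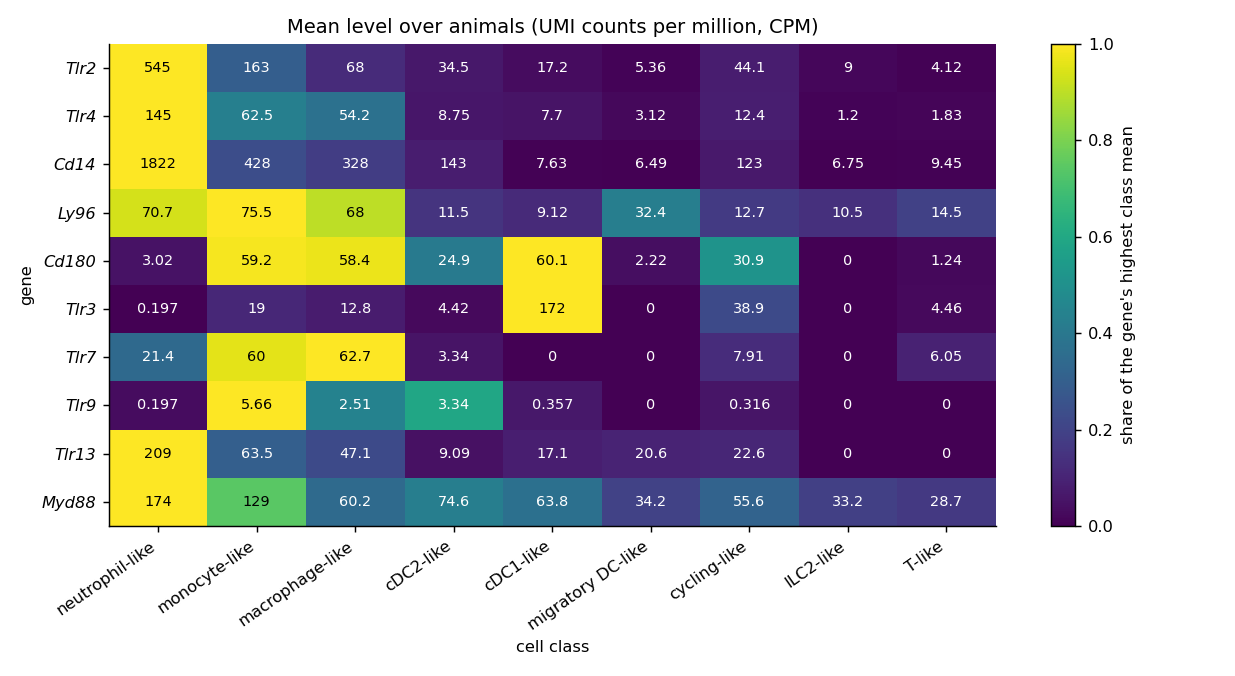
Mean level of each of the 10 genes (rows) in 9 cell classes (columns), printed in raw CPM averaged over animals with 10 or more cells of the class and coloured by its share of the gene's highest class mean. Tlr2, Tlr4, Cd14, Tlr13 and Myd88 are highest in neutrophil-like cells, Tlr3 in cDC1-like cells at 172 CPM, and Tlr7 is at 0 in cDC1-like cells.

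The same test was used for the order of classes of all 10 genes. Neighbouring classes in each gene's order were compared within animals by an exact two-sided sign-flip test on log2(CPM + 20), which understates differences of low genes, and p values were adjusted over all 80 neighbour pairs. With 3 to 10 animals per pair the smallest adjusted p was 0.0893, so 0 of 80 pairs passed; 21 had an unadjusted p under 0.05 and 14 of the pairs reached the smallest p that their number of animals allows. The order of classes is therefore given with the number of animals that show it.

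Tlr4 (4:66827551-66846581) had the same leading class. It stood at 145 ± 49.3 CPM in neutrophil-like cells, 62.5 ± 23.6 in monocyte-like and 54.2 ± 16.3 in macrophage-like cells. All 7 animals had more Tlr4 in neutrophil-like than in monocyte-like cells (difference 0.92 ± 0.37 log2, exact p = 0.0156, adjusted p = 0.0893), while monocyte-like and macrophage-like cells were not separable (5 of 8 animals higher in monocyte-like, exact p = 0.445). All 7 animals with cycling cells had more Tlr4 in macrophage-like than in cycling cells (difference 1.06 log2, exact p = 0.0156). In the dendritic and lymphoid classes Tlr4 was at 1.20 to 8.75 CPM.

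Cd14, the lipopolysaccharide carrier, gave 10784 UMIs. In neutrophil-like cells the values were 2355, 1969, 1469, 1711 and 2180 CPM in wild-type animals and 1191 and 1877 CPM in knock-out animals 1 and 5, so that the lowest of the 7 stood above every monocyte-like value (154 to 706 CPM). The within-animal difference was 1.94 ± 0.44 log2, in 7 of 7 animals (exact p = 0.0156, adjusted p = 0.0893). Monocyte-like cells stood at 428 ± 173 and macrophage-like cells at 328 ± 37.4 CPM; 7 of 8 animals had more in monocyte-like cells, with a difference of 0.25 ± 0.59 log2 (exact p = 0.289). All 10 animals had more Cd14 in macrophage-like than in cDC2-like cells (143 ± 47.3 CPM, difference 1.17 ± 0.53 log2, exact p = 0.00195). Among dendritic cells the Cd14 means differed: cDC2-like cells stood at 143 CPM, cDC1-like cells at 7.63 ± 9.23 and migratory DC-like cells at 6.49 ± 8.89. These classes were not neighbours in the order, so they were not tested against each other. Clusters within the cDC2-like class also differed in Cd14, as given below. Of neutrophil-like cells 78.5% had a Cd14 UMI at a median depth of 1820 UMIs, against 1.21% of T-like cells, which should lack it, at a median of 3113. With cells thinned to 1000 UMIs the shares were 65.8% and 0.403%. Langerhans-like cells, dendritic cells of surface epithelia (56 cells, too few per animal for a test), gave 303.5 CPM of Cd14 pooled (exact 95% binomial interval 252 to 363, counting error only) and 92.8 CPM of Tlr2 (65.3 to 128).

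Ly96 (1:16688456-16709605) had like means in the mature myeloid classes. It was measured at 75.5 ± 17.3 CPM in monocyte-like, 70.7 ± 44.4 in neutrophil-like and 68.0 ± 16.5 in macrophage-like cells. Neighbours in this order were not separable (exact p = 0.531 and 0.594), and monocyte-like were not compared with macrophage-like cells. The neutrophil-like values ran from 0 to 120 CPM, so equal levels are not shown. The dendritic and lymphoid classes stood at 9.12 to 32.4 CPM.

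Cd180 (13:102693547-102706631) was low in neutrophil-like cells, and its means over both genotypes were alike in cDC1-like, monocyte-like and macrophage-like cells. It stood at 60.1 ± 23.2 CPM in cDC1-like, 59.2 ± 32.6 in monocyte-like and 58.4 ± 21.2 in macrophage-like cells. Neighbours in this order were not separable (exact p = 0.641 for both), and cDC1-like were not compared with macrophage-like cells. By genotype the means of these classes, in the same order, were 57.1, 37.4 and 50.0 CPM in wild-type animals. In knock-out animals they were 63.1, 95.4 and 66.7 CPM, so the class order differed between genotypes. In cDC2-like cells it was at 24.9 ± 8.62 CPM, in neutrophil-like cells at 3.02 ± 3.77 CPM and in migratory DC-like cells at 2.22 CPM (2 UMIs in 89 cells). All 7 animals had more Cd180 in cDC2-like than in neutrophil-like cells (difference 0.90 ± 0.41 log2, exact p = 0.0156, adjusted p = 0.0893). The 100 B-like cells, 66 of them from wild-type animal 3, gave 94.6 CPM pooled (exact interval 65.1 to 133). ILC2-like cells gave 0 UMIs in 293 cells.

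**Figure D2:**
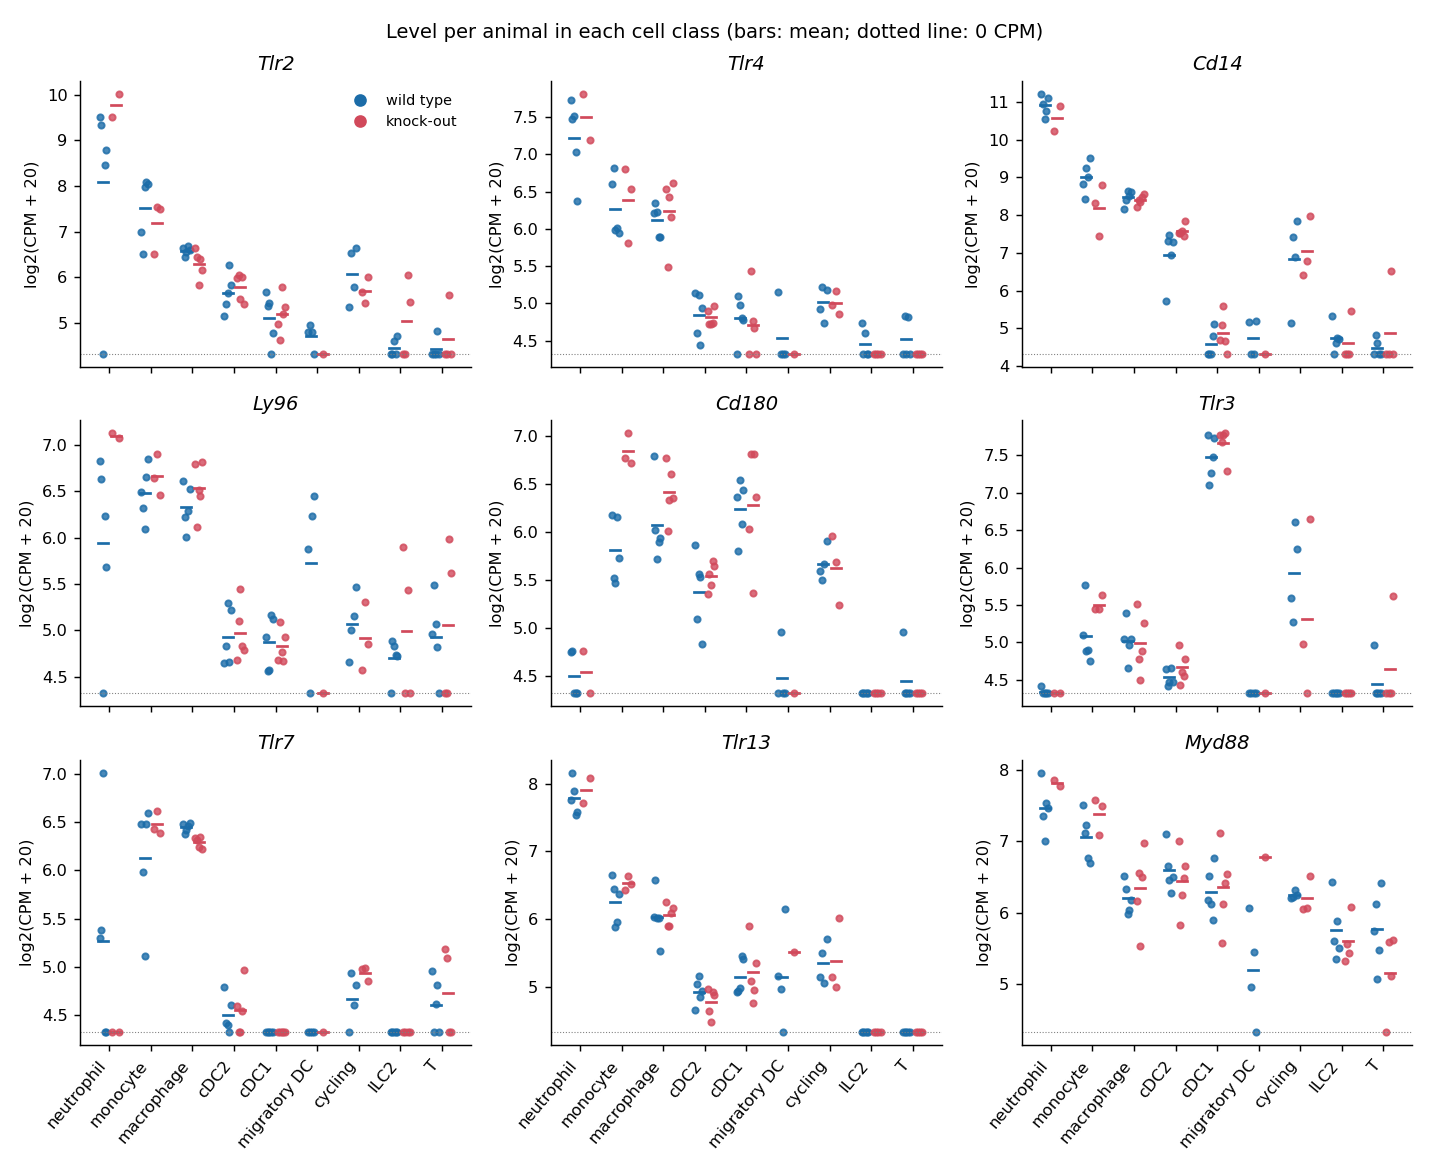
Level per animal (1 point each, blue wild type, red knock-out, horizontal bars the means) of 9 genes, Tlr9 left out, on a log2(CPM + 20) scale by cell class; the dotted line is 0 CPM. In raw CPM, all 7 neutrophil-like Cd14 values lie at 1191 CPM or above, and all 10 cDC1-like Tlr3 values lie between 118 and 202 CPM.

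Among the endosomal receptors, Tlr3 (8:45395665-45411075) was highest in cDC1-like cells. In cDC1-like cells, known for presenting antigen taken up from dead cells, it stood at 198, 118, 134, 159 and 193 CPM in wild-type animals and at 199, 186, 199, 202 and 136 CPM in knock-out animals. In the other 8 main classes the highest value of an animal was 80.1 CPM, in cycling cells. Tlr3 UMIs were found in 125 of 209 cDC1-like cells (59.8%, median depth 7941 UMIs) and in 1 of 594 neutrophil-like cells (0.168%, median 1820). After thinning to 1000 UMIs the shares were 16.3% and 0. Although cDC1-like cells were 209 of 6054, they held 42.2% of all 678 Tlr3 UMIs, and as a mean over animals 47.7 ± 22.8%.

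The next class in the order, cycling cells (38.9 ± 32.3 CPM), was not uniform. All 7 animals had more Tlr3 in cDC1-like than in cycling cells (difference 1.88 ± 0.91 log2, exact p = 0.0156, adjusted p = 0.0893). Of 80 Tlr3 UMIs in cycling cells, 71 came from a cluster of 18 cells in which cDC1 markers were the second-highest set after the cycling markers. That cluster gave 244 CPM pooled, against 4.22 CPM in the main cycling cluster of 188 cells. Both clusters are named by cell division genes, and neither was tested against the other. Monocyte-like cells (19.0 ± 10.2 CPM), macrophage-like cells (12.8 ± 7.31), T-like cells (4.46) and cDC2-like cells (4.42 ± 3.07) followed, and migratory DC-like and ILC2-like cells gave 0 UMIs.

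**Figure D3:**
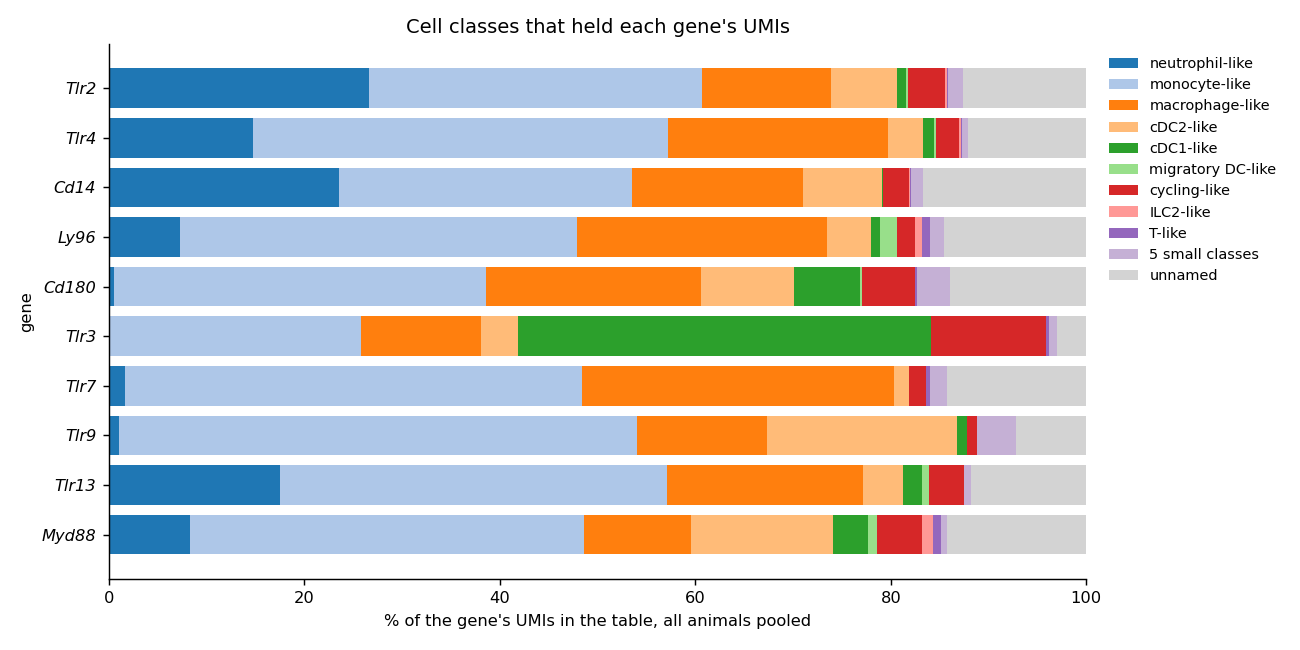
Share of each gene's UMIs held by each cell class, pooled over 10 animals, in percent. Monocyte-like cells hold the largest pooled share for 9 of the genes, and for Tlr3 the cDC1-like cells do, with 42.2%.

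Tlr7 (X:167303380-167330574) was highest in macrophage-like and monocyte-like cells. It stood at 62.7 ± 5.49 CPM in macrophage-like cells and 60.0 ± 21.3 in monocyte-like cells, which were not separable (exact p = 0.648). Neutrophil-like cells gave 21.4 ± 39.8 CPM, with 0 in several animals and 109 CPM in the highest. Pooled over animals, monocyte-like cells held the larger share of its UMIs (46.8%), and as a mean over animals macrophage-like cells did (39.8 ± 20.4% against 36.0 ± 26.6%). In cDC2-like cells it stood at 3.34 CPM, and in cDC1-like, migratory DC-like and ILC2-like cells at 0. Langerhans-like cells, too few per animal for a test, gave 25.1 CPM pooled (10 UMIs, exact interval 12.03 to 46.1). For cDC1-like cells this is 0 of 209 cells, which allows a level of up to 1.76 CPM (3 counts over the class).

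Tlr13 (X:106143275-106160493), the receptor for bacterial ribosomal RNA, ran with Tlr4 over the 9 class means (Pearson r = 0.95, a description) and less with Tlr7 (0.62). Its neutrophil-like values were 196, 267, 218, 166 and 172 CPM in wild-type animals and 190 and 252 CPM in knock-out animals 1 and 5. All 7 were above the same animal's monocyte-like value (class mean 63.5 ± 15.7 CPM, difference 1.50 ± 0.32 log2, exact p = 0.0156, adjusted p = 0.0893). Macrophage-like cells stood at 47.1 ± 12.8 CPM, cDC1-like at 17.1 ± 9.82 and cDC2-like at 9.09 ± 4.08 CPM, with cDC1-like above cDC2-like in 8 of 10 animals (exact p = 0.0156, adjusted p = 0.0893). T-like and ILC2-like cells gave 0 UMIs.

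Tlr9 (9:106222598-106226876) was close to the detection limit. It gave 98 UMIs in all 6054 cells, 52 of them in monocyte-like cells (5.66 ± 3.28 CPM), and no class had a mean above that. No order of classes is read from these values.

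Myd88 (9:119335934-119340018) was found in all 9 classes, at a mean of 28.7 CPM or above. It stood at 174 ± 42.0 CPM in neutrophil-like cells, 129 ± 33.6 in monocyte-like, 74.6 ± 24.0 in cDC2-like, 63.8 ± 26.4 in cDC1-like and 60.2 ± 21.9 in macrophage-like cells. The lymphoid classes still gave 33.2 ± 15.3 (ILC2-like) and 28.7 ± 19.7 CPM (T-like). Neutrophil-like cells were above monocyte-like cells in 6 of 7 animals (difference 0.37 ± 0.35 log2, exact p = 0.0312, adjusted p = 0.139). All 8 animals had more Myd88 in monocyte-like than in cDC2-like cells (difference 0.54 ± 0.21 log2, exact p = 0.00781, adjusted p = 0.0893).

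Over the 9 class means, members fell into sets with like patterns (Pearson r of log2(mean CPM + 20); the points share libraries, and no p is given). Tlr2 ran with Tlr4 (r = 0.97), Cd14 (0.96) and Myd88 (0.95), while Tlr3 had an r of -0.19 with Cd14 and 0.70 with Cd180. Among 4975 other genes that reached a mean of 50 CPM in some class, those most like Tlr3 were Clec9a (0.95), Irf8 (0.95) and Xcr1 (0.95), which are themselves cDC1 markers. The genes most like Tlr4 were Dok3, Bst1 and Hk3 (each 0.99), and for Tlr2 they included Gk and Cd300lf (each 0.99). For Tlr7 they were Ctsl (0.99), Tmem86a and Abca1, and for Tlr13 Gm34084, Scarb2 and Msrb1 (each 0.98). For Cd14 they were Cd300lb, Ier3 and Fndc3b (each 0.98), for Ly96 Cstb, Oas1g and Sh3glb1 (each 0.96), for Cd180 Rab7b (0.98), Tbxas1 and Tifa, and for Myd88 Xbp1, A530064D06Rik and Ifitm6 (each 0.97). Tlr9 was below 50 CPM in every class, with a highest class mean of 5.66 CPM. It was most like Dmkn, Ccl24 and Rasgef1b (0.92 to 0.94), but its values are close to the detection limit and nothing is read from this likeness.

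Other Toll-like receptors, from a list of 6, also differed in mean CPM between the 9 classes. Tlr6, a partner of Tlr2, was highest in neutrophil-like cells (44.1 ± 17.9), and Tlr1, another partner of Tlr2, in ILC2-like (30.6 ± 28.4) and monocyte-like cells (26.0 ± 9.16). Tlr8 stood at 22.8 ± 8.81 in monocyte-like and 20.8 ± 6.09 in macrophage-like cells. Tlr11 and Tlr12, receptors for profilin, were highest of the 9 in cDC1-like cells (28.2 ± 21.3 and 15.5 ± 13.9). In classes too small for values per animal, Tlr1 gave 37.3 CPM pooled in B-like cells (exact interval 19.8 to 63.7) and Tlr12 gave 22.6 CPM in Langerhans-like cells (10.3 to 42.8). None of these orders was tested.

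The question of the series is what the loss of Il20rb changes. Fold changes are given on the log2 scale as knock-out over wild type, ± the standard error, from edgeR's quasi-likelihood test on UMI sums per animal; p values are Benjamini-Hochberg adjusted over all genes tested in that comparison, and a gene is called at an adjusted p under 0.05. Members could be tested where enough UMIs were present: 9 of 10 in all CD45+ cells (5 against 5 animals), 9 in monocyte-like (5 against 3), 8 in macrophage-like (5 against 5), 4 in cDC2-like (5 against 5), 4 in cycling (4 against 3) and 2 in cDC1-like cells (5 against 5). No member had enough in ILC2-like or T-like cells, and Tlr9 had enough in none. Of the 36 folds, 1 was called, that of Cd180 in monocyte-like cells. Neutrophil-like cells had 5 wild-type but only 2 knock-out animals with enough cells and were not tested by edgeR. Raw levels were also compared between genotypes by exact permutation of animals, with no adjustment for the number of tests. An exact permutation p under 0.05 was found for 1 of 10 members each in all CD45+, monocyte-like, macrophage-like, cDC2-like and unnamed cells. In cDC1-like, cycling, neutrophil-like, ILC2-like and T-like cells it was found for 0 of 10.

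**Figure D4:**
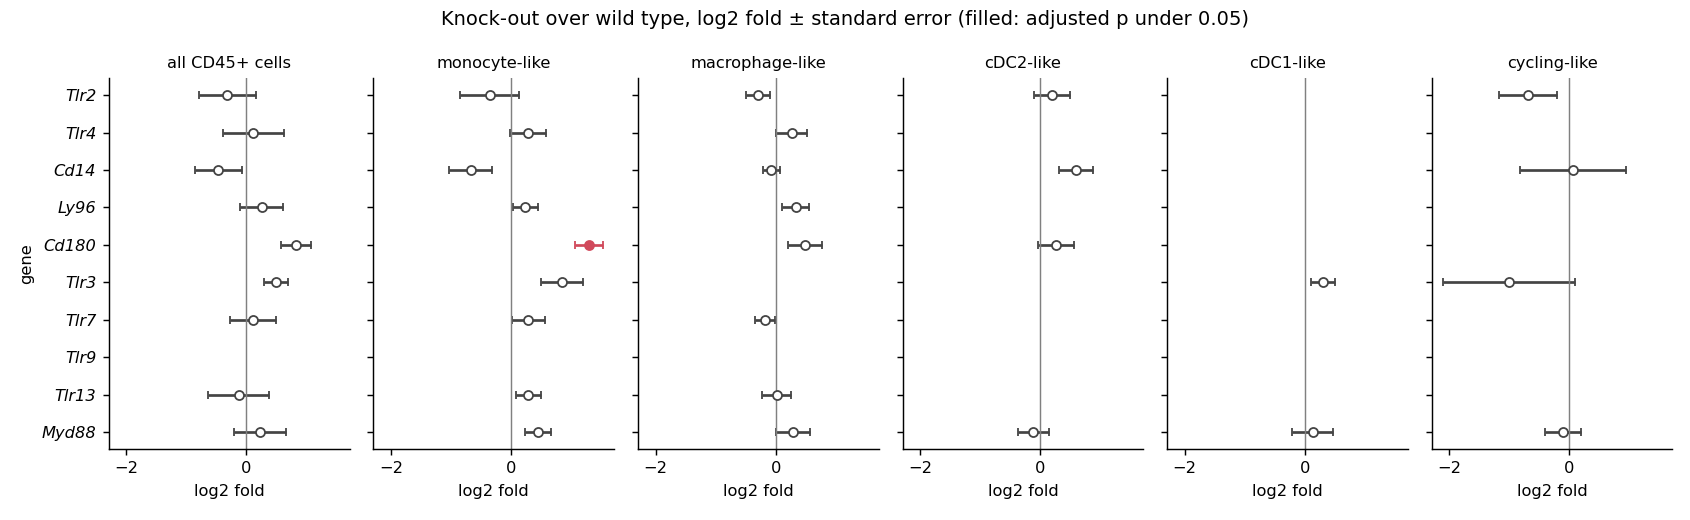
Log2 fold change, knock-out over wild type, with standard error, of each tested member in all CD45+ cells and in 5 cell classes (edgeR). The filled point, Cd180 in monocyte-like cells at 1.30, is the only called value, and open points were not called.

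In monocyte-like cells Cd180 rose in knock-out animals. Its raw levels were 52.5, 25.8, 24.2, 51.6 and 33.0 CPM in wild-type animals and 89.7, 111 and 85.8 CPM in knock-out animals 1, 4 and 5. The genotypes did not overlap, and the log2 fold was 1.30 ± 0.24 (edgeR adjusted p = 0.0264; exact permutation p = 0.0357, the smallest that 5 against 3 animals can give). In this class 2.05% of all genes tested were called and 12.5% did not overlap between genotypes, while Cd180 was the only member with either. Knock-out animals 2 and 3 held 9 and 4 monocyte-like cells and could not enter. The direction was the same in every alternative analysis, with folds from 0.96 to 1.55. The call was lost without wild-type animal 3 (adjusted p = 0.0517), wild-type animal 5 (0.0657), knock-out animal 4 (0.0562) or knock-out animal 5 (0.125), in well 1 alone (0.0854) and with coarser clusters (0.109).

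The monocyte-like class was not made of the same clusters in both genotypes. A cluster led by Ifi208 and Cxcl10, both interferon-induced, made up 1.45 ± 2.10% of the class in wild-type animals and 18.9 ± 4.35% of it in knock-outs. A cluster led by Ccl12 and Cxcl10 made up 6.14 ± 3.80% and 20.6 ± 8.87%. A cluster led by Cxcl3, a chemokine that draws neutrophils, and F10 made up 33.8 ± 25.1% and 0.715 ± 0.761%. Pooled Cd180 levels in these clusters were 114, 124 and 25.3 CPM, and the other 4 clusters stood at 47.6 to 67.4 CPM. Within the cluster led by Vcan and Maf, Cd180 stood at a mean of 49.7 CPM in 4 wild-type and 55.4 CPM in 3 knock-out animals. Within the Ccl12 cluster it stood at 94.7 CPM in the 1 wild-type animal with enough cells and at 123 to 164 CPM in 3 knock-out animals. Values by genotype within the other clusters are not given here, so these do not show how Cd180 differed within clusters in general. Without the 2 interferon-led clusters, a choice made after seeing the data, the log2 fold was 0.96 ± 0.27 (edgeR adjusted p = 0.121).

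**Figure D5:**
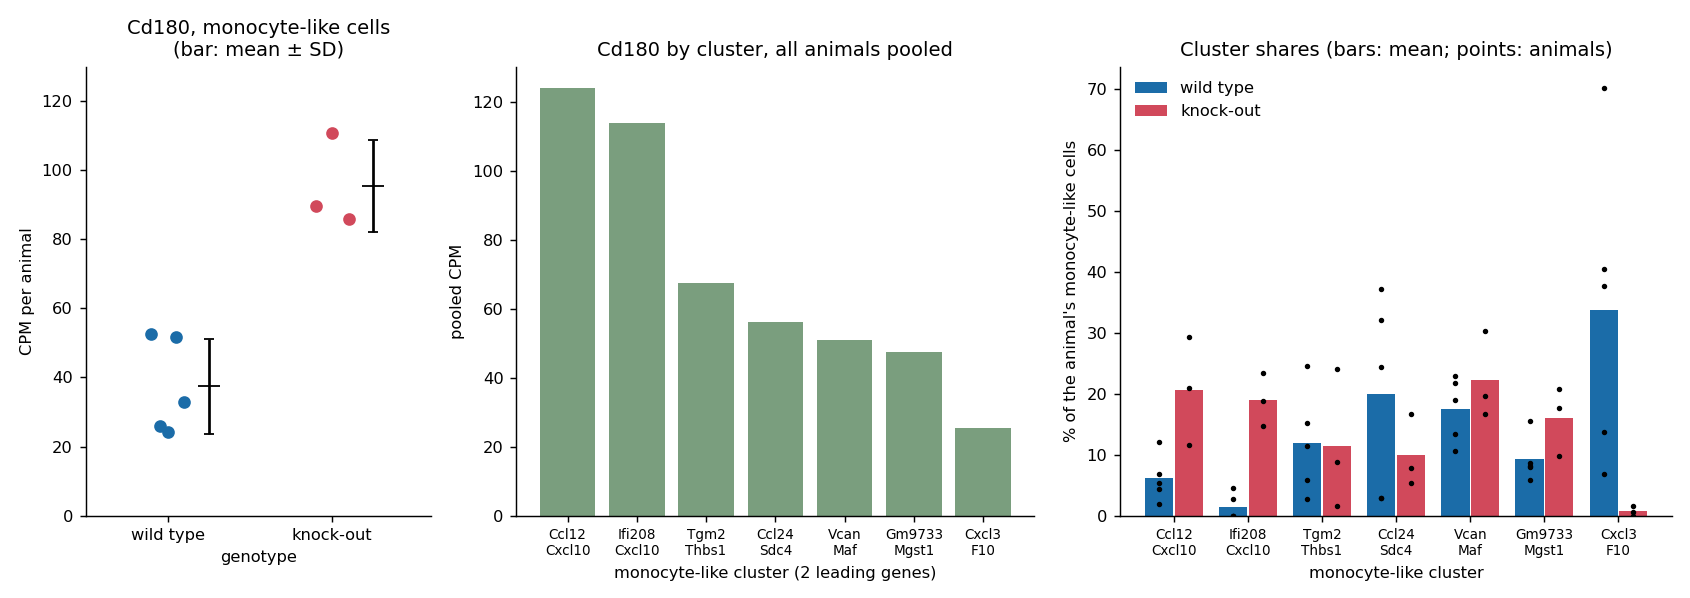
Cd180 in monocyte-like cells, in raw CPM per animal (left, points, with mean ± SD) and pooled per cluster (middle, bars), beside the percent of each animal's class that each cluster makes up (right, bars the means, points the animals). The 3 knock-out animals lie between 85.8 and 111 CPM and the 5 wild-type animals between 24.2 and 52.5 CPM.

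Markers of some other cell types in these sums were as follows. The 11 neutrophil markers, 10 of them detected, summed to 83.4 to 1052 CPM in wild-type and 170 to 189 CPM in knock-out animals. The 14 macrophage markers summed to 4680 to 6738 CPM in wild-type and 4391 to 6647 CPM in knock-out animals. The 9 cDC2 markers summed to 34.8 to 146 and 45.4 to 71.5 CPM. The 11 B cell markers together gave at most 7.26 CPM in any animal, with Pax5, Ly6d, Fcer2a, Fcmr and Vpreb3 among those at 0. The 11 cDC1 markers, 9 of them detected, summed to 382 to 755 CPM in wild-type and 996 to 1369 CPM in knock-out animals. The largest parts of that sum were Ifi205, an interferon-induced gene (106 to 448 and 574 to 949 CPM), Naaa (92.9 to 185 and 153 to 218 CPM), Irf8 (53.2 to 91.0 and 103 to 183 CPM), Wdfy4 (25.8 to 46.7 and 35.2 to 45.4 CPM) and Batf3 (16.2 to 34.4 and 34.8 to 56.3 CPM). Xcr1 was at most 1.74 CPM, Clec9a at most 8.69, Snx22 at most 2.15 and Itgae at most 0.577, and Cadm1 and Gcsam were at 0. The 8 plasmacytoid dendritic cell markers, 5 of them detected, summed to 488 to 1153 CPM in wild-type and 1665 to 1917 CPM in knock-out animals, with Siglech, Klk1 and Pacsin1 at 0. The 9 monocyte markers themselves summed to 6983 to 11609 and 12365 to 15973 CPM. The part of these differences in the Cd180 value was not tested.

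The other members in monocyte-like cells did not pass. Tlr3 had a log2 fold of 0.86 ± 0.35 (edgeR adjusted p = 0.234), with wild-type values of 14.4, 34.4, 9.67, 9.84 and 6.95 CPM and knock-out values of 23.4, 23.6 and 29.6 CPM. Wild-type animal 2 lay above all knock-out animals, and the other 4 wild-type animals lay below them. Cd14 had a fold of -0.67 ± 0.36 (adjusted p = 0.392), from 432, 325, 585, 499 and 706 CPM in wild-type to 301.003, 154 and 423 CPM in knock-out animals. Myd88 stood at 0.45 ± 0.22 (adjusted p = 0.324) and Tlr2 at -0.35 ± 0.49 (adjusted p = 0.800). Tlr4, Tlr7, Tlr13 and Ly96 stood at 0.24 to 0.29 (adjusted p of 0.549 or above). Beside these, the Cxcl3 cluster that was larger in wild-type animals gave the most Cd14 (644 CPM pooled, against 158 in the Ifi208 cluster) and Tlr2 (258 CPM). Tlr3 was highest in the Ccl12 and Ifi208 clusters (46.7 and 39.7 CPM). The part of this make-up in the genotype values was not tested.

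Over all CD45+ cells, where 0.0393% of genes were called and 1.46% did not overlap between genotypes, 0 of 9 members were called. In such sums, fewer cells of a type and less RNA per cell cannot be told apart. Cd180 stood at 40.3, 25.1, 31.7, 33.0 and 27.4 CPM in wild-type and at 67.4, 44.1, 33.8, 61.0 and 59.3 CPM in knock-out animals. Knock-out animal 3 fell within the wild-type range and the other 4 knock-out animals above it (exact permutation p = 0.0159; edgeR log2 fold 0.83 ± 0.25, adjusted p = 0.445). Tlr3 had a fold of 0.49 ± 0.20 (adjusted p = 0.680), Cd14 of -0.47 ± 0.39 (0.902), and Tlr2 of -0.32 ± 0.48 (0.953). The classes with the most Cd14 and Tlr2 varied in size between animals: the share of neutrophil-like cells was 11.97 ± 13.8% in wild-type animals and 3.39 ± 3.93% in knock-outs, and that of monocyte-like cells 15.9 ± 9.02% and 24.5 ± 22.1%. For Cd180, the share of B-like cells was 2.29 ± 3.29% and 0.404 ± 0.336% (exact permutation p = 0.0397). Wild-type animal 3 held 8.16%, the other wild-type animals 0.6 to 1.10% and the knock-outs 0 to 0.912%. For Tlr3, the share of cDC1-like cells was 3.37 ± 1.42% and 4.52 ± 2.34% (exact permutation p = 0.365). The part of these shares in the Cd180 and Tlr3 values was not tested. Without neutrophil-like cells the Tlr2 fold was 0.03 and the Tlr13 fold turned from -0.13 to 0.14.

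In macrophage-like cells (0.0382% of genes called, 0.801% not overlapping) 0 of 8 members were called. Tlr7 was the one whose raw levels did not overlap: 69.3, 63.0, 65.5, 68.0 and 69.9 CPM in wild-type and 60.7, 59.4, 55.4, 61.1 and 54.4 CPM in knock-out animals (exact permutation p = 0.00794, the smallest possible with 5 against 5). The difference in means was small, 67.1 against 58.2 CPM, and the edgeR fold was -0.18 ± 0.17 (adjusted p = 0.996). Cd180 had a fold of 0.49 ± 0.28 (adjusted p = 0.996), at 90.9, 45.2, 32.8, 39.6 and 41.5 CPM in wild-type and 89.2, 44.5, 60.6, 77.1 and 62.2 CPM in knock-out animals. Wild-type animal 1 stood above the highest knock-out animal. By cluster, Cd180 ranged from 31 to 111 CPM, highest in a macrophage-like cluster led by Ccl8, and Tlr7 from 24.3 to 123 CPM. The remaining members stood between -0.29 (Tlr2) and 0.33 (Ly96).

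In cDC2-like cells (0.0358% of genes called, 0.985% not overlapping) 0 of 4 members were called. Cd14 stood at 33.2, 139, 157, 103 and 137 CPM in wild-type and at 164, 163, 170, 155 and 210 CPM in knock-out animals. By cluster, Cd14 ranged from 35.1 to 348 CPM pooled, highest in a cDC2-like cluster led by Cd209a and Mt2. Of the wild-type animals, animal 3 alone reached the knock-out range (exact permutation p = 0.0159; edgeR log2 fold 0.59 ± 0.28, adjusted p = 0.999). In the unnamed cells, which edgeR did not test, Cd14 differed in the opposite direction: 299, 317, 357, 275 and 378 CPM in wild-type and 285, 227, 242, 208 and 258 CPM in knock-out animals (325 ± 42.0 against 244 ± 29.3, exact permutation p = 0.0159). Knock-out animal 1 lay above the lowest wild-type animal, and the part of the unnamed cells' make-up was not tested. In cDC2-like cells Tlr2, Cd180 and Myd88 had folds of 0.20, 0.27 and -0.12. In cDC1-like cells (0.159% called, 0.851% not overlapping) 0 of 2 members were called: Tlr3 had a fold of 0.31 ± 0.20 (adjusted p = 0.915) and Myd88 of 0.13 ± 0.34 (0.95). In cycling cells (0.026% called, 5.67% not overlapping) 0 of 4 members were called, with folds of -1.01 ± 1.10 for Tlr3, -0.69 ± 0.49 for Tlr2, -0.10 ± 0.30 for Myd88 and 0.06 ± 0.88 for Cd14. Genes with an unadjusted p under 0.05 numbered 697 in all cells, 230 in macrophage-like, 250 in cDC2-like, 104 in cDC1-like and 139 in cycling cells.

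Whether the genotype difference itself depended on the class was tested as an interaction, with the animal as a term, between monocyte-like, macrophage-like and cDC2-like cells. Of 26 such tests of members, 0 passed after adjustment and 5 had an unadjusted p under 0.05. Over all genes, 5.26% had an unadjusted p under 0.05 between monocyte-like and macrophage-like cells, 8.31% between monocyte-like and cDC2-like and 3.27% between macrophage-like and cDC2-like cells, and 0, 3 and 0 genes were called (0%, 0.0456% and 0%). The fold of Cd180 was lower in cDC2-like than in monocyte-like cells (-1.10 ± 0.37, edgeR adjusted p = 0.353) and lower in macrophage-like cells (-0.80 ± 0.33, adjusted p = 0.860). The fold of Cd14 was higher in cDC2-like than in monocyte-like cells (1.45 ± 0.48, adjusted p = 0.490), higher in cDC2-like than in macrophage-like cells (0.72 ± 0.23, adjusted p = 1), and higher in macrophage-like than in monocyte-like cells (0.67 ± 0.30, adjusted p = 0.913). The rise of Cd180 is therefore not shown to be particular to monocyte-like cells.

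In neutrophil-like cells only values can be given. The share of all genes whose values did not overlap between genotypes was not computed for this class, so nothing is read from a lack of overlap. Tlr2 was at 0 to 706 CPM in 5 wild-type animals and at 712 and 1017 CPM in 2 knock-out animals. Ly96 was at 0 to 94.0 and at 115 and 120 CPM. The values of the other members overlapped. With 5 against 2 animals an exact permutation test cannot give a p below 0.0952, the value that Tlr2 and Ly96 had. The sums of wild-type animals 4 and 3 held 18114 and 18376 UMIs, so that 1 UMI there is worth up to 55.2 CPM.

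Of 64 other genes of the pathway, in 8 lists, 48 could be tested in monocyte-like cells, and 1 rose and 2 fell. Ctss, a protease that cleaves endosomal receptors, rose from 1384 to 2240 CPM after TMM scaling (log2 fold 0.69 ± 0.13, edgeR adjusted p = 0.0264). Cd36, a scavenger receptor that works with Tlr2, fell from 131 to 39.5 CPM (-1.68 ± 0.31, adjusted p = 0.0264). Tnf, an inflammatory cytokine and target gene, fell from 134 to 55.9 CPM (-1.21 ± 0.28, adjusted p = 0.0445). These genes kept their direction in every alternative, but all 3 calls were lost when any one of these was left out: animals 3, 4 and 5 of the wild type, and animals 4 and 5 of the knock-outs. Those of Cd36 and Tnf were also lost without knock-out animal 1. The highest edgeR adjusted p with 1 animal left out was 0.156 for Ctss, 0.129 for Cd36 and 0.161 for Tnf. With coarser clusters the adjusted p was 0.317, 0.378 and 0.716, and without the interferon-led clusters 0.112, 0.121 and 0.139. The call of Ctss was lost in well 1 alone (0.0826), and those of Cd36 (0.193) and Tnf (0.391) in well 2 alone. Ly86, the partner of Cd180, stood at 333 and 582 CPM (0.79 ± 0.23, adjusted p = 0.0924), the interferon regulatory factor Irf7 at 1.48 (adjusted p = 0.0629), and Unc93b1, which carries Tlr3, Tlr7, Tlr9 and Tlr13 to endosomes, at 0.66 (adjusted p = 0.0644).

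By list in monocyte-like cells, 1 of 7 genes of folding, trafficking and cleavage rose and 0 fell (median log2 fold 0.15), 0 rose and 1 of 2 partners and ligand carriers fell (-0.44), and 0 rose and 1 of 9 target genes fell (0.18). None of the tested genes passed among 2 other receptors (0.49), 2 adaptors (-0.16), 10 kinases and ubiquitin ligases (0.04), 7 transcription factors (0.16) and 9 inhibitors (-0.18). The median of all genes tested there was -0.01. In the other comparisons 0 pathway genes were called, of 56 tested in all CD45+ cells, 41 in macrophage-like, 39 in cDC2-like, 26 in cycling, 16 in cDC1-like, 12 in ILC2-like and 10 in T-like cells.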

How the data were processed

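The authors deposited UMI counts per gene and cell, not normalized, with well, genotype and hashtag in the cell names, per the file headers. Cell Ranger 6.0.1, R 4.0.5 and mm10 are named in the submitters' processing notes, without roles; the sources used here do not give hashtag calling or strand use. No cell lay under 1000 UMIs or 501 genes, or above 9.99% mitochondrial UMIs. The wells shared 2 barcodes. The hashtag libraries' own counts were not used here.

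Members, lists and tests were chosen with earlier results of these data known. Cells were clustered with scanpy 1.11.5 (2000 variable genes without the 10 members, 30 components, 15 neighbours, Leiden of igraph 0.11.9, resolution 3) into 43 clusters, named when 3 or more of a type's markers were raised by 1 log2 unit (196 markers of 23 types). Scrublet called 3 cells doublets (0.0496%), too few to count as working, so no cell was removed and leaving out the top 5% of scores was an alternative. Sums per animal and class (10 or more cells) went into edgeR 4.0.16 under R 4.3.3 (filterByExpr, TMM, robust quasi-likelihood) where 3 or more animals per genotype had them; DESeq2 1.42.0 was an alternative. Genes named are the members, the 3 genes most like each, and pathway genes past the test or with the smallest p in their list; some are not reported here. Intervals are exact, at 95%, and cover counting error only. The sources used here do not say whether animals were littermates. Before use, edgeR was run on counts simulated with known changes from the kind of model that it fits. The check covered the share of false calls, the signs of called changes and the estimated size of the larger changes. It set no limit on how many changes were recovered, so no statement of power is drawn from it.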

Additional observations from a re-analysis of the deposited data

Results flagged for a closer look

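In groups of 4 or 5 animals, a value was picked out when its gap to the nearest other animal took up an unusually large part of the range (Dixon's test at the 95% level). Of 59 such groups of member values, 4 had one, and chance gives about 1 in 20.

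Tlr3 in cDC1-like cells of knock-out animal 5 was at 136 CPM, with the other 4 knock-out animals at 186 to 202 CPM; that animal held 11 cDC1-like cells. Tlr3 in monocyte-like cells of wild-type animal 2 was at 34.4 CPM, with the other wild-type animals at 6.95 to 14.4 CPM. Cd14 in cDC2-like cells of knock-out animal 5 was at 210 CPM (209.6), against 155 to 170 CPM in the other knock-out animals. Cd180 in macrophage-like cells of wild-type animal 1 was at 90.9 CPM, against 32.8 to 45.2 CPM in the other wild-type animals. That animal held 42 macrophage-like cells, the fewest of the 10 animals. Their sum was 461960 UMIs, within the range of 311171 to 1086849 UMIs over animals, so it was not the shallowest.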

How the results depend on the processing

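No paired analysis was possible because the labels pair no wild-type with any knock-out animal. Of 36 folds of members, 24 kept their direction in all settings and 12 turned in at least 1; over 633 fold settings, 596 were on the same side in direction and threshold and 30 had the opposite sign. Cd180 in monocyte-like cells kept its direction throughout, and the number of members called there was 0 in well 1 alone, at resolution 2 and without the interferon-led clusters, and 0 to 1 when 1 animal was left out.

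The genes called among all tested moved by more than 1.5 times. Under DESeq2 they were 74 in all CD45+ cells, 4 in cDC2-like, 2 in cycling and 205 in monocyte-like cells. Without the filter on low counts they were 7 in all cells, 18 in cDC1-like, 21 in cDC2-like, 6 in cycling, 27 in macrophage-like and 456 in monocyte-like cells. In well 1 alone they were 2 in all cells, 1 in cDC2-like, 0 in macrophage-like and 14 in monocyte-like cells, and in well 2 alone 0 in cDC1-like, 1 in cDC2-like and 0 in macrophage-like cells. Without the robust option they were 2 in cycling and 0 in macrophage-like cells, and without the top Scrublet scores 2 and 0. At resolution 2 they were 1 in macrophage-like and 1 in monocyte-like cells. The alternatives chosen after seeing the data gave 41 in all cells without monocyte-like and neutrophil-like cells and 6 in monocyte-like cells without the interferon-led clusters. Leaving out 1 animal gave 1 to 5 in all cells, 2 to 8 in cDC1-like, 1 to 5 in cDC2-like, 0 to 3 in cycling, 0 to 5 in macrophage-like and 1 to 348 in monocyte-like cells. Fewer or other samples and genes enter by construction; otherwise the cause was not tested.

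None of the folds that turned was called. In all cells without monocyte-like and neutrophil-like cells, Cd14 stood at 0.061 and Tlr7 at -0.14, and without neutrophil-like cells Tlr2 stood at 0.032 and Tlr13 at 0.14. In well 2, Tlr2 in cDC2-like cells stood at -0.075 and Tlr13 in macrophage-like cells at -0.38, and without the top Scrublet scores the latter stood at -0.00089. Cd14 in cycling cells stood at -0.012 without the filter, Tlr2 in monocyte-like cells at 0.10 at resolution 2, and Tlr7 there at -0.027 in well 1. Leaving out 1 animal gave Myd88 -0.025 to 0.63, Tlr13 -0.39 to 0.34, Tlr2 -0.68 to 0.14, Tlr4 -0.23 to 0.62 and Tlr7 -0.095 to 0.38 in all cells, Myd88 -0.34 to 0.065 in cDC2-like, Cd14 -0.48 to 0.41 in cycling and Tlr13 -0.11 to 0.24 in macrophage-like cells. Among differences between neighbouring classes, Tlr7 between macrophage-like and monocyte-like cells stood at -0.18 in knock-out animals only. With cells thinned, Ly96 between monocyte-like and neutrophil-like cells stood at -0.21 and Cd180 between cDC1-like and monocyte-like cells at -0.13, and in knock-out animals only they stood at -0.55 and -0.44. Depth limits the neutrophil-like sums of wild-type animals 3 and 4 and every value of Tlr9.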
